A study of Rattus norvegicus with 18 samples.

Results

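The motile cilium is the beating, microtubule-based projection of multiciliated airway cells, and 46 genes for its regulators, its dynein motors and its axoneme were followed here in the lungs of rats dosed with a carbon nanotube for up to 2 years. The members were chosen by name with earlier results of these data known, and each symbol was looked up in the gene column of the tables for each of the time points. Rows were found for 43 of the 46 genes among 22081 genes in all, and *Foxj1*, *Dnah3* and *Dnah10* were not analysed here. The lungs came from male F344 rats, an inbred strain, given MWNT-7, a straight multiwalled carbon nanotube (MWCNT), at 0.5 mg/kg of body weight into the trachea every 4 weeks, or the saline and Tween vehicle alone at 0 mg/kg on the same schedule. Groups of 3 control rats and 3 MWCNT-treated rats were taken at each of 3 times counted in years from the first dose (Years 0.5, 1 and 2), which gave 18 rats in 6 groups. Dosing began at 9 weeks of age. RNA came from small pieces of the accessory lobe without visible tumor, which may hold smaller lesions, and how much airway each piece held is not given in the sources used here. Total counts of reads per rat ran from 13297643 to 21130757.

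A motile cilium is built of a ring of doublet microtubules around a central pair. Outer and inner dynein arms on the doublets are the motors, radial spokes and the nexin link convert their pull into bending, and tektins and other proteins lie along or inside the doublets. Loss of single components causes primary ciliary dyskinesia, in which mucus is not cleared from the airways. Multicilin and *Myb* act early in a cell that takes on this structure and drive the multiplication of its centrioles, and RFX and FOXJ1 factors switch on the structural genes. In lung these genes mark the ciliated cells of bronchi and bronchioles, which sit beside club cells, and alveoli have none, whereas RFX factors and *Myb* are used by other cells too. Surfactant protein C (*Sftpc*), the defining marker of alveolar type 2 cells, lay between 17721 and 23609 TPM in the 9 control rats and the summed TPM of the members, where TPM is a level per transcript length scaled to a fixed total in each rat, lay between 1495 and 1993. *Tppp3* alone made up 62.9% to 73.5% of that sum, and the next highest member, *Cfap126*, had a mean of 53.02 ± 10.9 TPM (SD, n = 9). In bulk tissue, fewer ciliated cells and less RNA per ciliated cell cannot be told apart.

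RFX factors bind the X-box, a pair of inverted arms, and forkhead factors such as FOXJ1 bind a different core, so the DNA before the members' start sites was read for both. RefSeq gives a window of 250 bases before to 50 bases after the start (build GRCr8, a later build than that of the expression files) for 35 of the 46 genes and for 27457 genes in all. The X-box pair, GTTNCC followed after 0 to 3 bases by GGNAAC on either strand, was in the window of 1 member, *Ccdc151*, which is 2.86% of the members with a window, against 0.929% of all genes. A single consensus arm, GTTGCCA on either strand, was in 9 members or 25.7%, against 4.86% of all genes, and the forkhead letters TGTTTAC were in 2 members, *Cfap43* and *Spef2*, or 5.71%, against 4.13%. A match is a description of letters and not of binding. No mismatch was allowed, so a window counted for the single arm can still hold a second arm that differs from the pattern. The windows are printed to show these letters in genes of unlike role, each with short flanks and not past the start site. The *Ccdc151* window (chr8:28810512-28810564, reverse strand, RefSeq symbol *Odad3*) follows first, with the pair in capitals, and then come the windows with the single arm before the start site, which were added after the search for the pair had returned 1 gene, with the arm in capitals as GTTGCCA or, where it lies on the other strand, TGGCAAC, all written 5′ to 3′ on the gene's strand.
Ccdc151: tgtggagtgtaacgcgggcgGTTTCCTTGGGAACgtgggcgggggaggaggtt
Cfap44: cggtgggagtggcgttgctgTGGCAACcgc
Tekt1: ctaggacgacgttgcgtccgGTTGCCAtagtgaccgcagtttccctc
Drc1: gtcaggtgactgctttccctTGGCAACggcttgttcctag
Hydin: agccaccctagcggttgctgTGGCAAC
Dnah2: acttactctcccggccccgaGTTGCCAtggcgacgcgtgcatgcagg
Ccno: gGTTGCCAgggtgacgacggacgcgcgg
Mcidas: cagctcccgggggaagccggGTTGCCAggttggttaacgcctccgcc

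The single-arm windows are those of *Cfap44* on chr11:69789906-69789935 (reverse strand), *Tekt1* on chr10:57479134-57479180 (reverse strand), *Drc1* on chr6:31779257-31779296 (reverse strand), *Hydin* on chr19:55146439-55146465 (forward strand), *Dnah2* on chr10:54766045-54766091 (reverse strand), *Ccno* on chr2:46363824-46363851 (forward strand) and *Mcidas* on chr2:46369868-46369914 (forward strand). The arm began 7 bases before the start in *Hydin*, 10 in *Cfap44*, 20 in *Drc1*, 39 in *Tekt1* and 45 in *Dnah2*, whereas in *Mcidas* and *Ccno*, which neighbour each other on chromosome 2, it began 129 and 249 bases before. The pair of *Ccdc151* began 33 bases before its start. *Dnah11* and *Dnah10* hold the arm only behind the start, and their windows are not printed.

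Motile cilium transcripts were lower in the lungs of MWCNT-treated rats from Year 0.5 on, and nearly all of them were lower at Years 1 and 2. Of the 40 members with enough reads to be tested, 20 fell at Year 0.5, 37 at Year 1 and 36 at Year 2 at a false discovery rate (FDR) below 0.05, where the FDR is the Benjamini-Hochberg adjusted value of the edgeR quasi-likelihood test over all tested genes. Among all tested genes the share that fell was 18.6% at Year 0.5, 19.6% at Year 1 and 24% at Year 2. The median log2 fold change of the members was -0.65, -1.09 and -1.11, against -0.02, 0.0005 and -0.01 over all tested genes. Those that fell with a log2 fold change below -1, the DEG (differentially expressed gene) criterion of the study, numbered 1, 23 and 27 of 40, against 3.03%, 4.09% and 8.22% of all tested genes. The 1 member that rose, *Tekt2*, did so at Years 1 and 2, when 21.6% and 25.2% of all tested genes rose.

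Over the whole course, 20 members fell at all 3 time points, 15 fell at Years 1 and 2 without passing the test at Year 0.5, *Myb* and *Rfx3* fell at Year 1 only, *Ccno* fell at Year 2 only, and *Cfap53* passed at no time point. On TMM-adjusted CPM, read counts scaled to library size with a factor that removes the overall shift between libraries, all 3 MWCNT-treated rats lay below all 3 control rats for 16 of 40 members at Year 0.5, 39 at Year 1 and 37 at Year 2, against 25.5%, 26.9% and 28.9% of all tested genes. TPM carries a shift of its own: the median tested gene had, in the treated rats, 89.2%, 85.02% and 85.4% of its control TPM at Years 0.5, 1 and 2, so ratios of the TPM values printed here run lower than the log2 fold changes, which come from the counts with TMM scaling. In TPM, the treated rats lay wholly below the control rats for 22, 39 and 37 of 40 members, against 40.7%, 46.8% and 45.7% of all tested genes, so overlap is given below on both scales, with CPM standing for TMM-adjusted CPM. The Year 0.5 count depended on single rats. It was 5 without MWCNT rat 2, 6 without control rat 1, 10 without control rat 3 (9 lower, and *Tekt2* higher), 13 without MWCNT rat 3, 19 without MWCNT rat 1 and 35 without control rat 2, and 5 members, *Rfx2*, *Zmynd10*, *Tekt4*, *Tppp3* and *Ak7*, passed in every case. At Years 1 and 2 the count stayed between 35 and 38 whichever rat was left out.

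**Figure D1:**
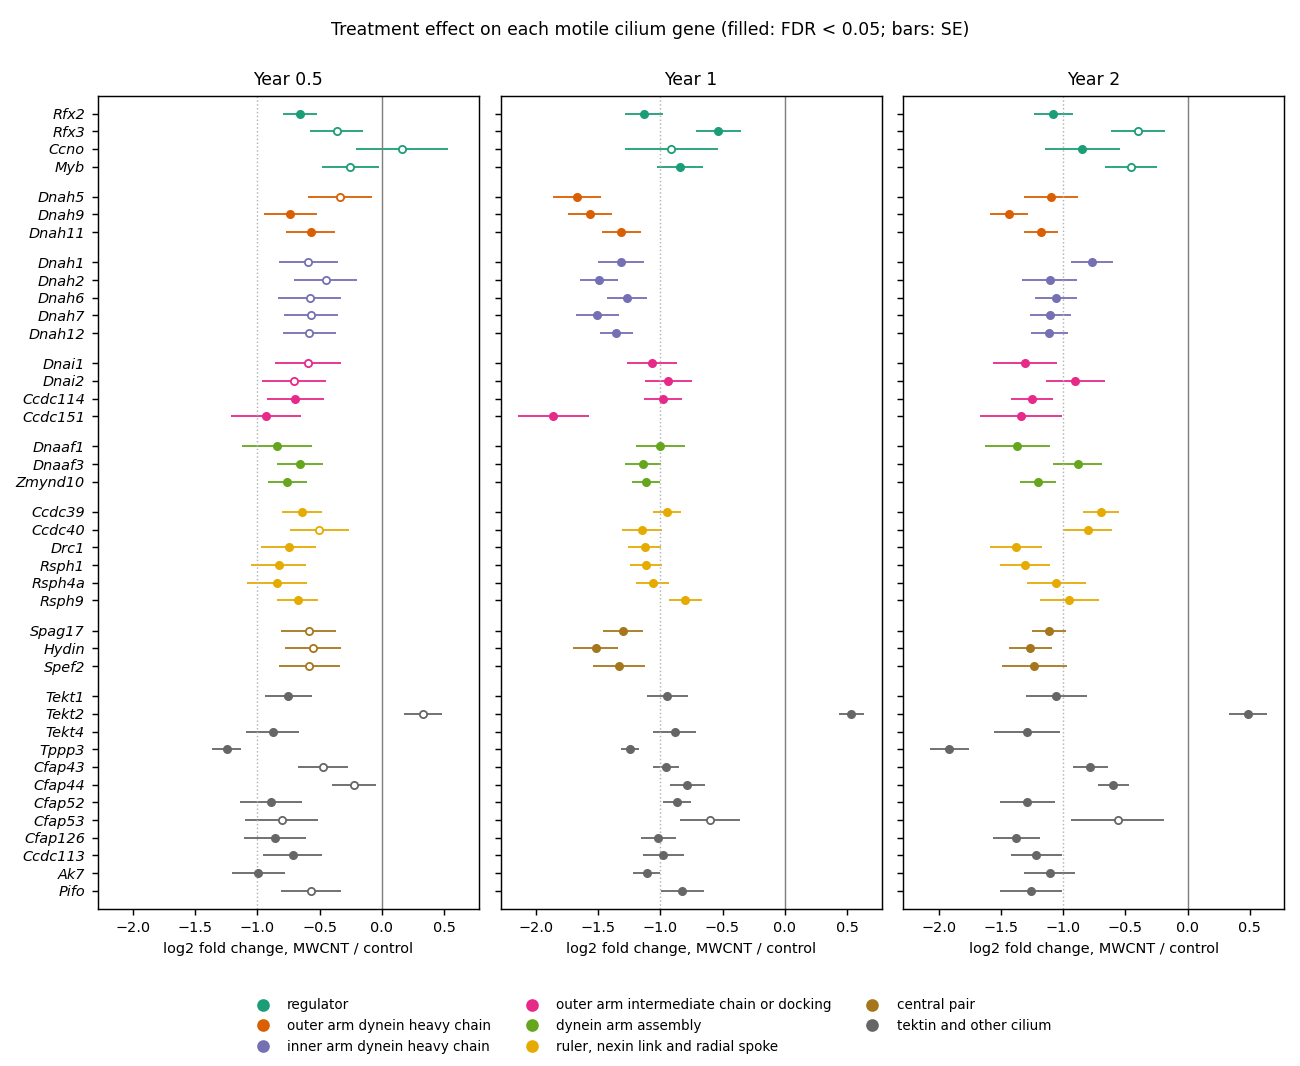
Log2 fold change of MWCNT-treated over control rats (horizontal axis) for each of the 40 tested members (rows, coloured by role) at Years 0.5, 1 and 2, from the edgeR fit with 3 rats a group. Points are estimates, bars are 1 SE, and filled points passed the FDR of 0.05. Nearly every point lies left of 0 at all time points, and *Tekt2* is the member to the right of 0 at each of them.

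Of the 4 tested regulators 1, 3 and 2 fell at Years 0.5, 1 and 2, against 18.6%, 19.6% and 24% of all tested genes. *Rfx2* encodes a transcription factor that binds the X-box of ciliary genes, and its TPM was 16.6, 14.9 and 21.8 at Year 0.5, 15.4, 24.7 and 21.5 at Year 1, and 20.2, 20.3 and 18.4 at Year 2 in control rats. MWCNT-treated rats had *Rfx2* TPM of 10.9, 9.40 and 10.2 at Year 0.5, 8.62, 7.06 and 8.22 at Year 1, and 6.52, 10.3 and 7.15 at Year 2. *Rfx2* log2 fold changes were -0.66, -1.13 and -1.08 at Years 0.5, 1 and 2, and the 2 groups overlapped on neither scale at any time point. It was the 1 regulator past the DEG criterion, with -1.13 ± 0.15 (SE, FDR = 0.000546) at Year 1 and -1.08 ± 0.16 (FDR = 0.000456) at Year 2, and it had already fallen at Year 0.5 (FDR = 0.00522). *Rfx3* encodes a related factor that many ciliated and endocrine cells use, and its TPM was 5.78, 3.84 and 6.35 at Year 0.5, 4.33, 6.90 and 5.43 at Year 1, and 3.09, 4.69 and 5.41 at Year 2 in control rats. MWCNT-treated rats had *Rfx3* TPM of 4.001, 3.08 and 4.21 at Year 0.5, 3.47, 2.73 and 3.59 at Year 1, and 2.39, 3.05 and 3.13 at Year 2. *Rfx3* log2 fold changes were -0.36, -0.53 and -0.40 at Years 0.5, 1 and 2, and the 2 groups overlapped on both scales at Years 0.5 and 2 only. It passed at Year 1 only (FDR = 0.0418), and without 5 of the 6 rats in turn it did not, with an FDR of up to 0.154 without control rat 2. *Myb* encodes a factor of early multiciliated cells that blood progenitors also make, and its TPM was 11.3, 6.95 and 13.4 at Year 0.5, 8.66, 12.3 and 11.1 at Year 1, and 6.49, 7.01 and 10.7 at Year 2 in control rats. MWCNT-treated rats had *Myb* TPM of 9.26, 6.61 and 8.22 at Year 0.5, 4.16, 4.86 and 6.21 at Year 1, and 4.39, 5.56 and 5.19 at Year 2. *Myb* log2 fold changes were -0.25, -0.84 and -0.45 at Years 0.5, 1 and 2, and the 2 groups overlapped on both scales at Year 0.5 only. The fall at Year 1 passed (FDR = 0.00669), and the differences at Year 0.5 (FDR = 0.411) and Year 2 (FDR = 0.0964) did not.

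Both genes of the multicilin locus were scarce. *Ccno* encodes cyclin O, needed for centrioles to multiply, and its TPM was 1.85, 1.76 and 1.29 at Year 0.5, 1.84, 3.20 and 1.495 at Year 1, and 2.01, 2.53 and 2.95 at Year 2 in control rats. MWCNT-treated rats had *Ccno* TPM of 2.06, 0.916 and 2.09 at Year 0.5, 0.835, 1.16 and 0.895 at Year 1, and 1.07, 1.41 and 1.08 at Year 2. *Ccno* log2 fold changes were 0.16, -0.91 and -0.85 at Years 0.5, 1 and 2, and the 2 groups overlapped on both scales at Year 0.5 only. It passed at Year 2 (FDR = 0.0415), though not when any 1 of the 6 rats was left out (FDR of up to 0.120 without MWCNT rat 3), and not at Year 0.5 (FDR = 0.752) or Year 1 (FDR = 0.0786). *Mcidas*, the multicilin gene that opens the multiciliated program, had too few reads to be tested, with 18, 11 and 4 counts in control rats at Year 0.5, 5, 13 and 16 at Year 1 and 5, 4 and 16 at Year 2. MWCNT-treated rats had *Mcidas* counts of 1, 0 and 6 at Year 0.5, 5, 5 and 1 at Year 1, and 3, 3 and 7 at Year 2. The TPM of *Mcidas* was 0.916, 0.671 and 0.229 at Year 0.5, 0.306, 0.739 and 0.765 at Year 1, and 0.288, 0.225 and 0.992 at Year 2 in control rats. In MWCNT-treated rats *Mcidas* TPM was 0.0530, 0 and 0.313 at Year 0.5, 0.257, 0.221 and 0.0511 at Year 1, and 0.161, 0.141 and 0.356 at Year 2, and the groups overlapped in TPM at Years 0.5 and 2 and not at Year 1.

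The outer arm heavy chains, the motors that set the beat frequency, showed the largest falls among the role groups at Year 1, with a median log2 fold change of -1.57, and all 3 were DEGs at Years 1 and 2. At Year 0.5, 2 of the 3 fell. *Dnah5* encodes a heavy chain present along the whole cilium, and its TPM was 2.47, 1.72 and 3.58 at Year 0.5, 3.11, 5.0005 and 3.47 at Year 1, and 2.57, 2.16 and 3.502 at Year 2 in control rats. MWCNT-treated rats had *Dnah5* TPM of 2.31, 1.52 and 1.76 at Year 0.5, 1.06, 0.834 and 1.21 at Year 1, and 0.923, 1.39 and 0.991 at Year 2. *Dnah5* log2 fold changes were -0.34, -1.67 and -1.10 at Years 0.5, 1 and 2, and the 2 groups overlapped on both scales at Year 0.5 only. At Year 1 its level was 31.5% of control, -1.67 ± 0.19 on the log2 scale (SE, FDR = 0.000239), whereas at Year 0.5 the difference did not pass (FDR = 0.326). *Dnah9* encodes the heavy chain of the outer part of the cilium, and its TPM was 8.24, 5.96 and 10.998 at Year 0.5, 9.02, 12.8 and 10.9 at Year 1, and 11.2, 9.08 and 11.2 at Year 2 in control rats. MWCNT-treated rats had *Dnah9* TPM of 5.55, 3.57 and 4.64 at Year 0.5, 3.02, 2.31 and 4.07 at Year 1, and 2.73, 4.18 and 3.15 at Year 2. *Dnah9* log2 fold changes were -0.74, -1.57 and -1.43 at Years 0.5, 1 and 2, and the 2 groups overlapped at Year 0.5 on CPM and at no time point in TPM. It fell at all 3 time points, to 33.7% of control at Year 1 and 37.1% at Year 2 (FDR = 7.06e-05). *Dnah11* encodes the heavy chain nearer the base, and its TPM was 6.59, 4.86 and 8.44 at Year 0.5, 6.94, 9.31 and 8.24 at Year 1, and 7.92, 6.13 and 8.30 at Year 2 in control rats. MWCNT-treated rats had *Dnah11* TPM of 4.68, 3.19 and 4.29 at Year 0.5, 2.68, 2.16 and 3.57 at Year 1, and 2.73, 3.20 and 2.57 at Year 2. *Dnah11* log2 fold changes were -0.57, -1.31 and -1.18 at Years 0.5, 1 and 2, and the 2 groups overlapped at Year 0.5 on CPM and at no time point in TPM. It also fell at all 3, with -1.18 ± 0.14 (FDR = 0.00012) at Year 2.

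The inner arm heavy chains, which shape the bend of the beat, behaved almost as a block. None of the 5 tested passed at Year 0.5 by the edgeR test, where log2 fold changes ran from -0.59 to -0.45 and 4 had an unadjusted p below 0.05, and all 5 were DEGs at Year 1, between -1.50 and -1.27. At Year 2 all 5 fell, 4 of them as DEGs. *Dnah1* encodes a heavy chain of the inner arms, and its TPM was 5.03, 3.37 and 7.22 at Year 0.5, 5.004, 8.03 and 6.78 at Year 1, and 6.52, 5.38 and 6.77 at Year 2 in control rats. MWCNT-treated rats had *Dnah1* TPM of 3.20, 2.57 and 3.65 at Year 0.5, 2.16, 1.77 and 2.84 at Year 1, and 2.60, 4.10 and 2.73 at Year 2. *Dnah1* log2 fold changes were -0.59, -1.32 and -0.77 at Years 0.5, 1 and 2, and the 2 groups overlapped on both scales at Year 0.5 only. Its fall at Year 2, -0.77 ± 0.17 (FDR = 0.00478), was the smallest of the 5. *Dnah2* encodes another inner arm heavy chain, and its TPM was 3.42, 2.24 and 4.55 at Year 0.5, 3.72, 5.45 and 5.07 at Year 1, and 4.94, 4.31 and 4.99 at Year 2 in control rats. MWCNT-treated rats had *Dnah2* TPM of 2.64, 1.61 and 2.57 at Year 0.5, 1.41, 1.21 and 1.69 at Year 1, and 1.38, 2.75 and 1.56 at Year 2. *Dnah2* log2 fold changes were -0.45, -1.49 and -1.11 at Years 0.5, 1 and 2, and the 2 groups overlapped on both scales at Year 0.5 only. *Dnah6* encodes a further chain of the same class, and its TPM was 8.86, 5.77 and 13.01 at Year 0.5, 8.97, 13.5 and 12.7 at Year 1, and 11.3, 7.63 and 10.1 at Year 2 in control rats. MWCNT-treated rats had *Dnah6* TPM of 6.73, 4.49 and 5.58 at Year 0.5, 4.09, 3.37 and 5.004 at Year 1, and 3.57, 4.77 and 3.73 at Year 2. *Dnah6* log2 fold changes were -0.58, -1.27 and -1.06 at Years 0.5, 1 and 2, and the 2 groups overlapped on both scales at Year 0.5 only. At Year 1 *Dnah2* stood at 35.6% and *Dnah6* at 41.6% of control. *Dnah7* encodes an inner arm heavy chain of airway cilia, and its TPM was 4.38, 2.88 and 5.18 at Year 0.5, 4.43, 6.25 and 5.67 at Year 1, and 5.31, 3.76 and 5.44 at Year 2 in control rats. MWCNT-treated rats had *Dnah7* TPM of 3.20, 2.12 and 2.33 at Year 0.5, 1.61, 1.23 and 2.08 at Year 1, and 1.92, 2.15 and 1.74 at Year 2. *Dnah7* log2 fold changes were -0.57, -1.50 and -1.10 at Years 0.5, 1 and 2, and the 2 groups overlapped on both scales at Year 0.5 only. *Dnah12* encodes the inner arm heavy chain with the highest mean control TPM of the 8 heavy chains, and its TPM was 15.2, 10.5 and 18.7 at Year 0.5, 16.3, 21.6 and 20.6 at Year 1, and 18.9, 15.8 and 19.7 at Year 2 in control rats. MWCNT-treated rats had *Dnah12* TPM of 10.1, 6.52 and 10.3 at Year 0.5, 6.74, 5.11 and 7.64 at Year 1, and 6.34, 9.04 and 6.33 at Year 2. *Dnah12* log2 fold changes were -0.58, -1.35 and -1.11 at Years 0.5, 1 and 2, and the 2 groups overlapped at Year 0.5 on CPM and at no time point in TPM. Its log2 fold change of -1.35 ± 0.13 at Year 1 had an FDR of 0.000101, with the level at 39.1% of control.

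The genes that tether and complete the outer arm all fell at Years 1 and 2, and *Ccdc114* and *Ccdc151*, both of the docking complex, had fallen at Year 0.5. *Dnai1* encodes an intermediate chain that holds the heavy chains together, and its TPM was 10.2, 6.99 and 12.6 at Year 0.5, 10.2, 13.7 and 11.5 at Year 1, and 14.5, 8.42 and 10.4 at Year 2 in control rats. MWCNT-treated rats had *Dnai1* TPM of 7.53, 3.98 and 6.62 at Year 0.5, 3.74, 4.19 and 6.44 at Year 1, and 3.65, 4.94 and 3.03 at Year 2. *Dnai1* log2 fold changes were -0.59, -1.06 and -1.31 at Years 0.5, 1 and 2, and the 2 groups overlapped on both scales at Year 0.5 only. *Dnai2* encodes its partner chain, and its TPM was 11.5, 6.90 and 15.5 at Year 0.5, 10.5, 18.3 and 12.9 at Year 1, and 13.6, 8.78 and 12.8 at Year 2 in control rats. MWCNT-treated rats had *Dnai2* TPM of 6.92, 5.18 and 6.81 at Year 0.5, 5.60, 5.85 and 7.001 at Year 1, and 4.01, 7.29 and 4.97 at Year 2. *Dnai2* log2 fold changes were -0.70, -0.93 and -0.90 at Years 0.5, 1 and 2, and the 2 groups overlapped on both scales at Year 0.5 only. The *Dnai2* fall at Year 2 (FDR = 0.0124) did not pass without control rat 1 (FDR = 0.0508). *Ccdc114* encodes a docking complex subunit, and its TPM was 11.2, 6.78 and 12.9 at Year 0.5, 9.86, 13.6 and 10.8 at Year 1, and 16.5, 11.6 and 13.4 at Year 2 in control rats. MWCNT-treated rats had *Ccdc114* TPM of 6.28, 4.78 and 6.32 at Year 0.5, 4.40, 4.72 and 5.59 at Year 1, and 4.54, 5.31 and 5.23 at Year 2. *Ccdc114* log2 fold changes were -0.69, -0.98 and -1.25 at Years 0.5, 1 and 2, and the 2 groups overlapped at Year 0.5 on CPM and at no time point in TPM. *Ccdc151*, whose window holds the X-box pair, encodes another docking subunit, and its TPM was 3.30, 2.33 and 4.13 at Year 0.5, 3.37, 3.68 and 4.67 at Year 1, and 5.37, 2.99 and 3.62 at Year 2 in control rats. MWCNT-treated rats had *Ccdc151* TPM of 1.46, 1.31 and 1.88 at Year 0.5, 0.654, 1.13 and 0.923 at Year 1, and 1.36, 1.70 and 1.02 at Year 2. *Ccdc151* log2 fold changes were -0.93, -1.86 and -1.34 at Years 0.5, 1 and 2, and the 2 groups overlapped on neither scale at any time point. At Year 1 *Ccdc151* had the largest estimated fall of any member, -1.86 ± 0.28 (SE, FDR = 0.00107), which is 27.6% of control. It rested on few reads, with 52, 61 and 92 counts in control and 12, 24 and 17 in treated rats. *Dnah5*, at -1.67 ± 0.19, lay within 1 SE of it.

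Dynein arms are put together in the cytoplasm before transport into the cilium, and the 3 assembly factors fell at all 3 time points. *Dnaaf1* encodes a leucine-rich assembly factor, and its TPM was 9.45, 5.46 and 9.82 at Year 0.5, 8.13, 10.9 and 8.29 at Year 1, and 10.9, 6.47 and 10.1 at Year 2 in control rats. MWCNT-treated rats had *Dnaaf1* TPM of 5.80, 3.12 and 3.69 at Year 0.5, 2.95, 4.30 and 4.24 at Year 1, and 2.93, 3.90 and 2.35 at Year 2. *Dnaaf1* log2 fold changes were -0.84, -0.9999 and -1.37 at Years 0.5, 1 and 2, and the 2 groups overlapped on both scales at Year 0.5 only. *Dnaaf3* encodes an assembly factor of the same process, and its TPM was 10.9, 9.06 and 12.4 at Year 0.5, 11.3, 14.4 and 12.01 at Year 1, and 14.1, 11.3 and 10.9 at Year 2 in control rats. MWCNT-treated rats had *Dnaaf3* TPM of 6.34, 4.84 and 7.48 at Year 0.5, 4.35, 4.59 and 5.60 at Year 1, and 4.32, 6.98 and 5.67 at Year 2. *Dnaaf3* log2 fold changes were -0.66, -1.14 and -0.88 at Years 0.5, 1 and 2, and the 2 groups overlapped on neither scale at any time point. *Zmynd10* encodes a factor that stabilizes newly made dynein chains, and its TPM was 39.001, 28.7 and 40.98 at Year 0.5, 36.2, 46.9 and 42.2 at Year 1, and 51.04, 40.97 and 38.8 at Year 2 in control rats. MWCNT-treated rats had *Zmynd10* TPM of 22.3, 15.6 and 20.6 at Year 0.5, 16.5, 14.03 and 18.6 at Year 1, and 14.04, 17.97 and 17.2 at Year 2. *Zmynd10* log2 fold changes were -0.76, -1.11 and -1.20 at Years 0.5, 1 and 2, and the 2 groups overlapped on neither scale at any time point. *Zmynd10* had the smallest SE of the 3, and its log2 fold changes of -0.76 ± 0.16, -1.11 ± 0.12 and -1.20 ± 0.14 had FDR values of 0.00556, 0.000135 and 0.000142.

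The molecular ruler, the nexin link and the radial spokes fell together, with 5 of 6 genes lower at Year 0.5 and all 6 at Years 1 and 2. Of all tested genes 18.6%, 19.6% and 24% were lower at Years 0.5, 1 and 2. None of the 5 calls at Year 0.5 held whichever rat was left out. *Ccdc39* encodes one strand of the ruler that spaces the arms and spokes, and its TPM was 16.5, 10.7 and 15.7 at Year 0.5, 15.2, 18.05 and 16.6 at Year 1, and 14.8, 13.3 and 16.02 at Year 2 in control rats. MWCNT-treated rats had *Ccdc39* TPM of 9.12, 7.30 and 8.57 at Year 0.5, 8.38, 5.94 and 7.75 at Year 1, and 6.44, 9.63 and 7.37 at Year 2. *Ccdc39* log2 fold changes were -0.64, -0.95 and -0.69 at Years 0.5, 1 and 2, and the 2 groups overlapped on neither scale at any time point. It had the smallest fall of the 6 at Year 2, -0.69 ± 0.14 (FDR = 0.00346). *Ccdc40* encodes its partner in the ruler, and its TPM was 8.46, 5.70 and 11.99 at Year 0.5, 8.78, 13.6 and 11.1 at Year 1, and 9.15, 7.90 and 8.63 at Year 2 in control rats. MWCNT-treated rats had *Ccdc40* TPM of 6.35, 4.82 and 5.58 at Year 0.5, 3.87, 4.22 and 4.71 at Year 1, and 3.002, 5.48 and 4.22 at Year 2. *Ccdc40* log2 fold changes were -0.50, -1.15 and -0.80 at Years 0.5, 1 and 2, and the 2 groups overlapped on both scales at Year 0.5 only. *Drc1* encodes the core subunit of the nexin link, and its TPM was 14.1, 8.62 and 14.6 at Year 0.5, 13.3, 12.6 and 15.1 at Year 1, and 19.3, 13.3 and 13.7 at Year 2 in control rats. MWCNT-treated rats had *Drc1* TPM of 7.13, 5.26 and 7.92 at Year 0.5, 5.53, 4.51 and 5.996 at Year 1, and 4.12, 6.23 and 5.03 at Year 2. *Drc1* log2 fold changes were -0.75, -1.12 and -1.38 at Years 0.5, 1 and 2, and the 2 groups overlapped on neither scale at any time point. The *Drc1* fall of -1.38 ± 0.21 (FDR = 0.000594) was the largest of the 6 at Year 2. *Rsph1* encodes a radial spoke head protein, and its TPM was 30.7, 23.2 and 39.1 at Year 0.5, 33.4, 32.2 and 34.04 at Year 1, and 43.97, 28.8 and 36.2 at Year 2 in control rats. MWCNT-treated rats had *Rsph1* TPM of 19.4, 11.4 and 16.99 at Year 0.5, 11.1, 12.9 and 15.1 at Year 1, and 10.6, 15.5 and 11.9 at Year 2. *Rsph1* log2 fold changes were -0.83, -1.11 and -1.31 at Years 0.5, 1 and 2, and the 2 groups overlapped on neither scale at any time point. *Rsph4a* encodes another spoke head protein, and its TPM was 22.2, 15.9 and 28.4 at Year 0.5, 18.8, 27.02 and 21.5 at Year 1, and 22.7, 14.9 and 15.5 at Year 2 in control rats. MWCNT-treated rats had *Rsph4a* TPM of 14.4, 7.84 and 11.6 at Year 0.5, 8.80, 9.01 and 9.54 at Year 1, and 5.04, 9.12 and 7.94 at Year 2. *Rsph4a* log2 fold changes were -0.84, -1.06 and -1.06 at Years 0.5, 1 and 2, and the 2 groups overlapped on neither scale at any time point. *Rsph9*, the remaining spoke head gene, fell at all 3, with log2 fold changes of -0.68, -0.80 and -0.95.

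The central pair apparatus, which steers the arms through the spokes, showed no call at Year 0.5 and 3 of 3 DEGs at Years 1 and 2. At Year 0.5 its 3 tested genes lay between -0.59 and -0.55, with an unadjusted p below 0.05 for each in the edgeR test and FDR values of 0.0648, 0.0820 and 0.0882 for *Spag17*, *Hydin* and *Spef2*. *Spag17* encodes a large scaffold of the apparatus, and its TPM was 8.91, 5.75 and 9.83 at Year 0.5, 8.15, 12.8 and 10.4 at Year 1, and 9.26, 8.95 and 9.84 at Year 2 in control rats. MWCNT-treated rats had *Spag17* TPM of 6.47, 3.91 and 4.47 at Year 0.5, 3.62, 2.99 and 4.24 at Year 1, and 3.14, 4.65 and 3.36 at Year 2. *Spag17* log2 fold changes were -0.59, -1.30 and -1.11 at Years 0.5, 1 and 2, and the 2 groups overlapped on both scales at Year 0.5 only. *Hydin* encodes one of its projections, and its TPM was 7.30, 4.83 and 10.001 at Year 0.5, 8.04, 11.6 and 10.2 at Year 1, and 9.88, 7.42 and 10.3 at Year 2 in control rats. MWCNT-treated rats had *Hydin* TPM of 5.34, 3.83 and 4.51 at Year 0.5, 2.81, 2.20 and 3.87 at Year 1, and 2.95, 4.18 and 2.76 at Year 2. *Hydin* log2 fold changes were -0.55, -1.52 and -1.26 at Years 0.5, 1 and 2, and the 2 groups overlapped on both scales at Year 0.5 only. At Year 1 *Hydin* stood at 34.9% of control, -1.52 ± 0.18 on the log2 scale (FDR = 0.000278). *Spef2* encodes another projection protein, and its TPM was 3.29, 1.91 and 3.61 at Year 0.5, 4.07, 3.65 and 3.01 at Year 1, and 4.30, 2.93 and 3.70 at Year 2 in control rats. MWCNT-treated rats had *Spef2* TPM of 2.003, 1.503 and 1.84 at Year 0.5, 1.06, 0.989 and 1.58 at Year 1, and 1.28, 1.79 and 0.928 at Year 2. *Spef2* log2 fold changes were -0.58, -1.33 and -1.23 at Years 0.5, 1 and 2, and the 2 groups overlapped on both scales at Year 0.5 only. *Spag6* and *Spag16* had at most 11 and 10 counts in any rat and were not tested, with *Spag6* at a median of 4 counts in control and 3 in MWCNT-treated rats, and *Spag16* at 5 and 1. *Spag6* has a close relative in the tables, *Spag6l*, and reads that fit both could have been divided between them.

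The tektins and other cilium genes held both the largest fall at Year 2 and the 1 rise. *Tppp3* encodes a protein that bundles microtubules, abundant in ciliated cells and made by some connective tissue cells, and its TPM was 1098, 1098 and 1313 at Year 0.5, 1143, 1177 and 1077 at Year 1, and 1247, 1126 and 1096 at Year 2 in control rats. MWCNT-treated rats had *Tppp3* TPM of 495, 363 and 484 at Year 0.5, 422, 373 and 427 at Year 1, and 205, 332 and 259 at Year 2. *Tppp3* log2 fold changes were -1.25, -1.24 and -1.91 at Years 0.5, 1 and 2, and the 2 groups overlapped on neither scale at any time point. It was the 1 member that was a DEG at every time point, with -1.25 ± 0.12 (SE, FDR = 8.9e-05), -1.24 ± 0.07 (FDR = 6.45e-06) and -1.91 ± 0.15 (FDR = 1.38e-05), and at Year 2 it stood at 26.6% of control. *Tekt1* encodes a filament protein inside the doublets, and its TPM was 24.5, 14.99 and 22.6 at Year 0.5, 22.99, 25.2 and 21.6 at Year 1, and 27.9, 15.3 and 17.99 at Year 2 in control rats. MWCNT-treated rats had *Tekt1* TPM of 12.6, 9.79 and 11.2 at Year 0.5, 8.13, 10.1 and 12.6 at Year 1, and 7.95, 9.92 and 7.62 at Year 2. *Tekt1* log2 fold changes were -0.75, -0.94 and -1.06 at Years 0.5, 1 and 2, and the 2 groups overlapped on neither scale at any time point. *Tekt4* encodes another tektin, and its TPM was 16.9, 11.1 and 18.7 at Year 0.5, 14.6, 20.7 and 14.4 at Year 1, and 19.7, 14.1 and 12.97 at Year 2 in control rats. MWCNT-treated rats had *Tekt4* TPM of 8.86, 6.26 and 8.005 at Year 0.5, 7.496, 8.06 and 7.16 at Year 1, and 4.51, 7.71 and 4.28 at Year 2. *Tekt4* log2 fold changes were -0.88, -0.88 and -1.29 at Years 0.5, 1 and 2, and the 2 groups overlapped on neither scale at any time point. *Tekt4* was among the 5 members called at Year 0.5 whichever rat was left out, and *Tekt1* was not, with an FDR of up to 0.0615.

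Of the remaining 8 genes of this group, *Cfap52*, *Cfap126*, *Ccdc113* and *Ak7* fell at all 3 time points. *Cfap52* encodes a protein of the doublet interior, and its TPM was 15.6, 11.2 and 18.7 at Year 0.5, 15.3, 17.03 and 15.95 at Year 1, and 18.8, 11.6 and 17.3 at Year 2 in control rats. MWCNT-treated rats had *Cfap52* TPM of 9.91, 5.13 and 7.43 at Year 0.5, 6.94, 7.15 and 8.42 at Year 1, and 4.98, 6.94 and 4.93 at Year 2. *Cfap52* log2 fold changes were -0.89, -0.86 and -1.29 at Years 0.5, 1 and 2, and the 2 groups overlapped on neither scale at any time point. *Cfap126* encodes Flattop, which helps to position basal bodies, and its TPM was 49.98, 31.4 and 61.9 at Year 0.5, 51.7, 56.9 and 53.1 at Year 1, and 72.2, 49.6 and 50.4 at Year 2 in control rats. MWCNT-treated rats had *Cfap126* TPM of 28.9, 17.3 and 25.9 at Year 0.5, 18.3, 25.1 and 24.1 at Year 1, and 15.4, 21.7 and 20.3 at Year 2. *Cfap126* log2 fold changes were -0.86, -1.02 and -1.38 at Years 0.5, 1 and 2, and the 2 groups overlapped at Year 0.5 on CPM and at no time point in TPM. The fall of *Cfap126* at Year 2 was -1.38 ± 0.19 (FDR = 0.000342). *Ccdc113* encodes a coiled-coil ciliary protein, and its TPM was 20.2, 12.99 and 25.6 at Year 0.5, 21.2, 19.1 and 19.9 at Year 1, and 24.8, 18.9 and 19.5 at Year 2 in control rats. MWCNT-treated rats had *Ccdc113* TPM of 11.1, 9.33 and 12.1 at Year 0.5, 7.29, 8.04 and 10.7 at Year 1, and 7.49, 9.61 and 6.36 at Year 2. *Ccdc113* log2 fold changes were -0.72, -0.97 and -1.22 at Years 0.5, 1 and 2, and the 2 groups overlapped at Year 0.5 on CPM and at no time point in TPM. *Ak7* encodes an adenylate kinase that supplies nucleotides along the axoneme, and its TPM was 18.2, 11.6 and 21.6 at Year 0.5, 16.9, 19.6 and 18.4 at Year 1, and 19.3, 11.9 and 16.3 at Year 2 in control rats. MWCNT-treated rats had *Ak7* TPM of 9.06, 6.43 and 8.01 at Year 0.5, 6.55, 7.18 and 7.85 at Year 1, and 5.74, 7.73 and 5.52 at Year 2. *Ak7* log2 fold changes were -0.99, -1.11 and -1.11 at Years 0.5, 1 and 2, and the 2 groups overlapped on neither scale at any time point. *Ak7* had the fall next in size to *Tppp3* at Year 0.5, -0.99 ± 0.21 (FDR = 0.00624). *Pifo* encodes a protein of cilium assembly and disassembly, and its TPM was 10.6, 7.56 and 9.37 at Year 0.5, 10.3, 9.90 and 10.5 at Year 1, and 14.4, 10.9 and 11.1 at Year 2 in control rats. MWCNT-treated rats had *Pifo* TPM of 6.01, 4.13 and 6.79 at Year 0.5, 4.96, 4.93 and 4.83 at Year 1, and 3.60, 5.62 and 3.84 at Year 2. *Pifo* log2 fold changes were -0.57, -0.82 and -1.26 at Years 0.5, 1 and 2, and the 2 groups overlapped on neither scale at any time point. *Cfap43* and *Cfap44*, partners in a tether complex of the inner arms, fell at Year 1 (-0.95 ± 0.11 and -0.78 ± 0.14) and Year 2 (-0.78 ± 0.14 and -0.60 ± 0.12) and not at Year 0.5. *Cfap53*, of the doublet interior, had log2 fold changes of -0.80, -0.60 and -0.56 with FDR values of 0.0568, 0.0715 and 0.241.

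*Tekt2* differed in direction from the other tektins. *Tekt2* encodes a tektin of cilia and sperm tails, and its TPM was 22.8, 17.9 and 27.2 at Year 0.5, 20.04, 21.5 and 20.2 at Year 1, and 23.1, 18.5 and 21.7 at Year 2 in control rats. MWCNT-treated rats had *Tekt2* TPM of 25.6, 28.6 and 22.8 at Year 0.5, 26.6, 25.6 and 23.6 at Year 1, and 26.4, 29.04 and 20.98 at Year 2. *Tekt2* log2 fold changes were 0.33, 0.53 and 0.49 at Years 0.5, 1 and 2, and the 2 groups overlapped at Year 0.5 on CPM and at Years 0.5 and 2 in TPM. It rose at Year 1, 0.53 ± 0.10 (SE, FDR = 0.00283), and at Year 2, 0.49 ± 0.15 (FDR = 0.0255), and at Year 0.5 the estimate of 0.33 ± 0.15 did not pass (FDR = 0.122). The Year 1 rise passed without each rat in turn. The Year 2 rise did not pass without control rat 2 (FDR = 0.0958), control rat 3, MWCNT rat 1 or MWCNT rat 2 (FDR = 0.101), nor with scaling by library size alone or on TPM. *Tekt2* lies on the reverse strand of chromosome 5 (144341946 to 144345531 in Rnor_6.0), and *Adprhl2* lies downstream of it on the same strand (144336312 to 144341586). *Adprhl2* had log2 fold changes of 0.22, 0.41 and 0.18, with an FDR of 0.00425 at Year 1 and no call at the other time points. How reads in overlapping or adjoining transcripts were assigned is not given in the sources used here.

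**Figure D2:**
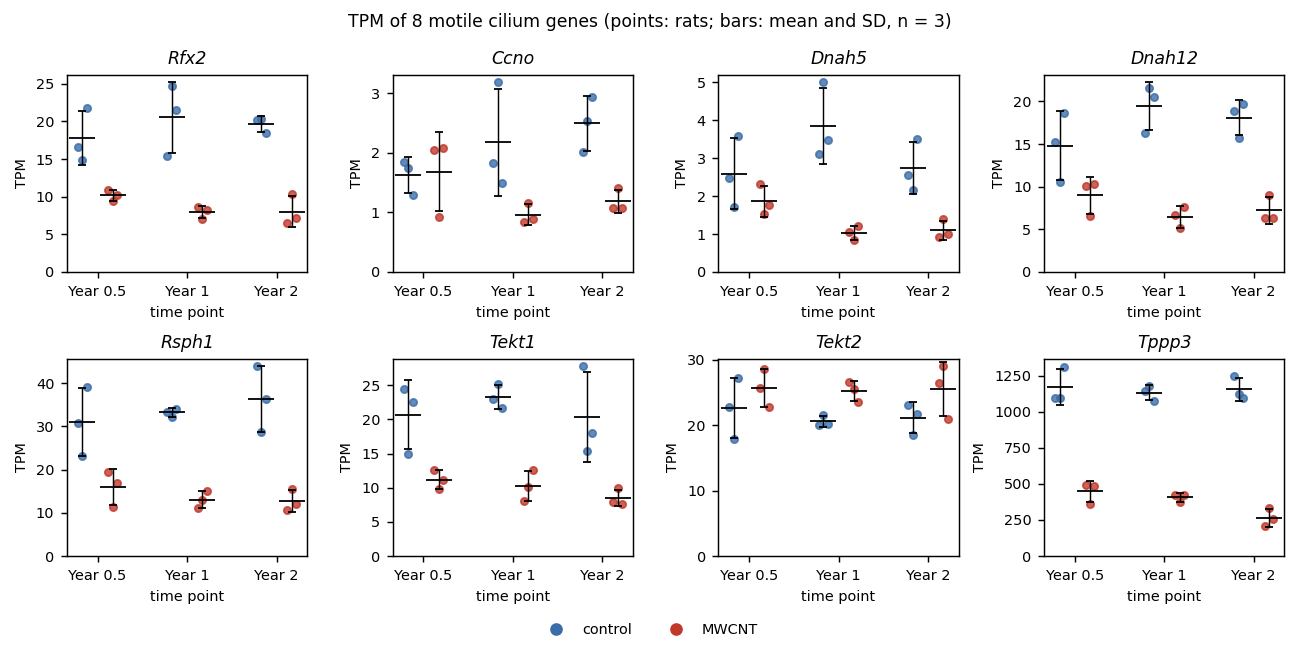
TPM (vertical axis, from 0) of 8 members at the 3 time points in control rats (blue) and MWCNT-treated rats (red), 3 rats a group as points, with black bars for the mean and SD. *Rfx2*, *Dnah12*, *Rsph1*, *Tekt1* and *Tppp3* separate the groups in TPM at every time point, though *Dnah12* overlaps on CPM at Year 0.5, *Ccno* and *Dnah5* overlap at Year 0.5, and *Tekt2* has the higher means in the treated rats.

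Within a group, rats differed from each other in the members as a block. In control rats at Year 0.5, rat 2 lay below the mean of its group for 39 of 41 members, with a median deviation of -0.44 on the log2 CPM scale, and rat 3 lay above it for 39, with a median of 0.35. At Year 2 control rat 1 lay above for 36 and control rat 2 below for 38. Among the treated rats, rat 2 at Year 0.5 lay below for 40 and rat 2 at Year 2 above for 40. Members of one rat are therefore not independent of each other.

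**Figure D3:**
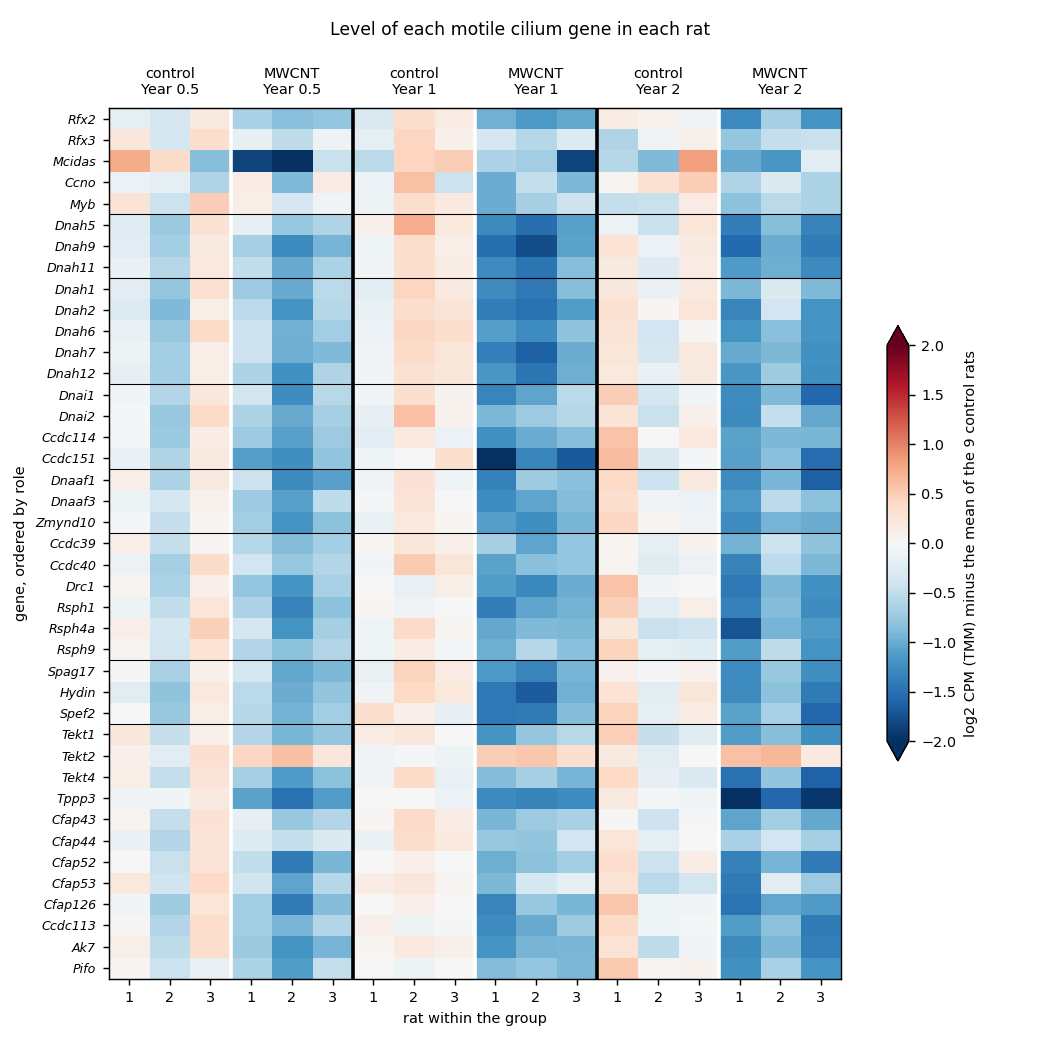
Log2 CPM (TMM-adjusted) of 41 members (rows, by role) in each of the 18 rats (columns), as the difference from the mean of the 9 control rats, with colours saturating at -2 and 2. Columns of the treated rats are blue for nearly all rows, *Tekt2* is red in them, and control rat 2 at Year 0.5 is blue through most of its column.

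The summed TPM of the members other than *Tppp3* put this on one scale. In control rats it was 574, 396 and 680.1 at Year 0.5, 553, 694 and 618 at Year 1 and 693, 511 and 581 at Year 2. In MWCNT-treated rats the sum was 372, 270.1 and 341 at Year 0.5, 256, 261 and 303 at Year 1 and 227, 314 and 239 at Year 2. Every treated rat lay below every control rat of its time point, on a scale where 40.7%, 46.8% and 45.7% of all tested genes did so, and the lowest control value, that of rat 2 at Year 0.5, lay close to the highest treated value. *Scgb1a1*, the secretoglobin that defines club cells, was added after its values were seen and was also lower in treated rats at each time point. It is 1 gene of a list of airway secretory markers that was mixed, as given below. *Scgb1a1* TPM in control rats was 31244, 20594 and 29412 at Year 0.5, 27016, 32241 and 25438 at Year 1 and 27529.5, 18232 and 17673 at Year 2. MWCNT-treated rats had *Scgb1a1* TPM of 15208, 11773 and 13171 at Year 0.5, 11829.6, 13651 and 12594 at Year 1 and 10335, 10938 and 10255 at Year 2, with log2 fold changes of -0.87 ± 0.15, -0.91 ± 0.12 and -0.80 ± 0.18 (FDR = 0.00227, 0.000559 and 0.00479). Within groups the order of rats could differ: among treated rats at Year 1, rat 3 had the highest sum and rat 2 the highest *Scgb1a1*. Per 100 TPM of *Scgb1a1*, the sum without *Tppp3* was 1.84 to 2.31 in control and 2.29 to 2.59 in treated rats at Year 0.5. It was 2.05 to 2.43 and 1.91 to 2.41 at Year 1, and 2.52 to 3.29 and 2.19 to 2.87 at Year 2. The groups thus overlapped in this ratio at each of the 3 time points, by a narrow margin at Year 0.5. This ratio leaves out *Tppp3*, for which it was not computed and which had treatment log2 fold changes of -1.25, -1.24 and -1.91. At Year 2 *Tppp3* made up 64.3% to 68.8% of the full sum in control and 47.5% to 51.9% in treated rats. The part of airway content in the falls was not tested.

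**Figure D4:**
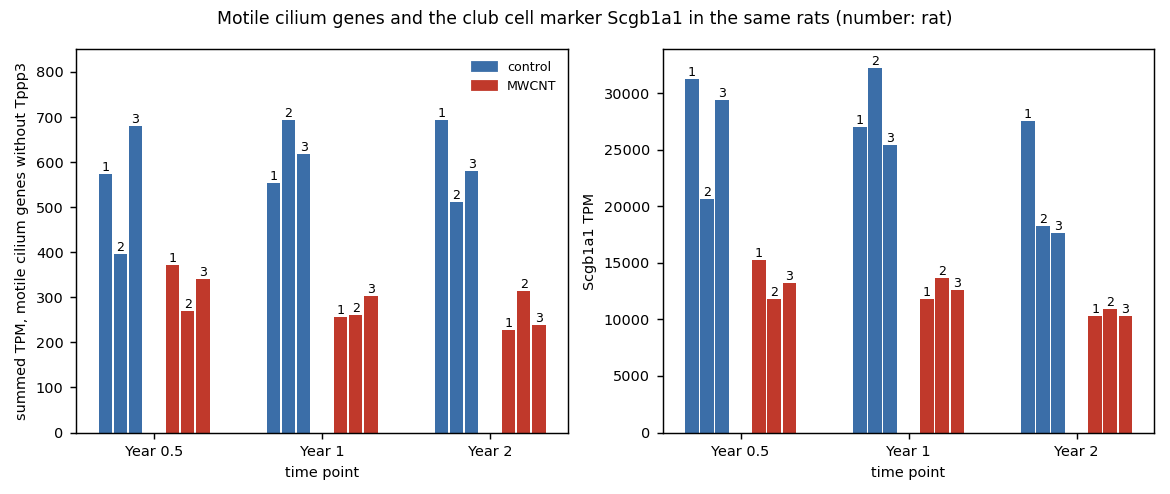
Summed TPM of the motile cilium genes without *Tppp3* (left) and TPM of *Scgb1a1* (right) in each rat, as bars from 0, with control rats in blue, MWCNT-treated rats in red and the rat's number above its bar. Treated rats are lower in both panels, and control rat 2 at Year 0.5 is the lowest of its group in both.

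No change of the members with age was detected in control rats. Among control rats, none of 41 members passed the FDR between Years 0.5 and 1, 0.5 and 2, or 1 and 2 in the edgeR model of all 18 rats, with 1, 1 and 0 at an unadjusted p below 0.05 and none by DESeq2, whereas the shares of all tested genes that passed were 0%, 6.65% and 7.93%. For the first of these contrasts 0 of 14843 genes passed, 1041 had an unadjusted p below 0.05, and DESeq2 called 21. The members' median log2 differences were 0.19, 0.16 and -0.05.

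In MWCNT-treated rats *Tppp3* was the 1 member that moved with time. It fell from Year 0.5 to Year 2 by 0.67 ± 0.14 (SE, FDR = 0.00344) on the log2 scale and from Year 1 to Year 2 by 0.60 ± 0.14 (SE, FDR = 0.0148), when 13.5% and 5.94% of all tested genes passed. The second of these did not pass without MWCNT rat 1 or rat 3 of Year 1 or rat 1 of Year 2, or when only the 6 rats compared were fitted. From Year 0.5 to Year 1 none of 41 members passed in edgeR or DESeq2, 8 had an unadjusted p below 0.05, and 0.101% of all tested genes passed. The lowest FDR of that contrast among the members was 0.387, and the median log2 difference was -0.26. From Year 0.5 to Year 2, 38 of 41 members had estimates below 0, with a median of -0.31, and 5 had an unadjusted p below 0.05 in edgeR. From Year 1 to Year 2, 19 of 41 had estimates below 0, with a median of 0.01, and 1 had an unadjusted p below 0.05.

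The treatment effect was estimated as larger at Years 1 and 2 than at Year 0.5, and no member passed the test of that difference in edgeR. Between Years 0.5 and 1, 37 of 41 members had the more negative effect at Year 1, the median difference was -0.38 on the log2 scale, and 12 had an unadjusted p below 0.05, but none passed the FDR in edgeR or DESeq2. Of all 14843 genes 0 passed in edgeR, which is 0%, with 1260 at an unadjusted p below 0.05 and 6 called by DESeq2. *Dnah5* had the largest of these differences that had an unadjusted p below 0.05, -1.34 ± 0.36 (SE, FDR = 0.545). For Year 2 against Year 0.5 and against Year 1 the share of all tested genes that passed was 1.31% and 0.478%, and the lowest FDR among the members was that of *Tppp3* both times, with a difference of -0.66 ± 0.19 (SE, FDR = 0.0971) and of -0.66 ± 0.19 (SE, FDR = 0.102). DESeq2 called *Tppp3* in both (FDR = 0.0197 and 0.0191), and edgeR called it for Year 2 against Year 0.5 without MWCNT rat 2 of Year 0.5 or of Year 2. At an unadjusted p below 0.05 in edgeR there were 5 members in the first of these 2 contrasts and 1 in the second.

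Other axoneme genes, a list of 77 symbols of which 67 had a row, followed the members. They fell in 32 of 66, 53 of 66 and 52 of 64 tested genes at Years 0.5, 1 and 2, and 1, 1 and 0 rose, with median log2 fold changes of -0.68, -0.86 and -0.99. Of all tested genes 18.6%, 19.6% and 24% fell and 20.2%, 21.6% and 25.2% rose at these time points. *Dnali1*, an inner arm light intermediate chain, had -1.09 ± 0.26, -1.46 ± 0.11 and -1.74 ± 0.18 at the 3 time points (FDR = 5.17e-05 at Year 2). *Cfap65*, a ciliary and sperm tail protein, had -0.66 ± 0.20, -1.41 ± 0.19 and -1.40 ± 0.13 (FDR = 2.86e-05 at Year 2). *Cfap70*, a protein of the outer arm, had -0.81 ± 0.13, -0.71 ± 0.09 and -1.03 ± 0.09 (FDR = 2.07e-05 at Year 2).

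Intraflagellar transport, the traffic that builds cilia of every kind including the primary cilia of many lung cells, showed smaller medians. Of 22 tested genes 9, 13 and 13 fell and 1 rose at each time point, none of them as a DEG, with medians of -0.24, -0.36 and -0.36. *Ift46*, a core subunit of the outward train, had -0.42 ± 0.09, -0.30 ± 0.08 and -0.57 ± 0.08 (FDR = 0.000434 at Year 2). *Ift122*, a subunit of the return train, had -0.21 ± 0.09, -0.41 ± 0.08 and -0.41 ± 0.08 (FDR = 0.00186 at Year 2). *Ttc21b*, another return train subunit, had 0.56 ± 0.07, 0.67 ± 0.10 and 0.61 ± 0.09 and was the 1 that rose (FDR = 0.000688 at Year 2). Centriole amplification genes were mixed, with 3, 6 and 6 of 12 lower and 2, 2 and 3 higher. Among all tested genes 18.6%, 19.6% and 24% were lower and 20.2%, 21.6% and 25.2% higher at Years 0.5, 1 and 2. *Tp73*, the p53 relative upstream of the ciliary regulators, had -0.80 ± 0.27, -1.30 ± 0.15 and -1.18 ± 0.23 and fell at each time point. *Ccdc78*, a protein of the centriole amplification platform, had -0.89 ± 0.22, -1.43 ± 0.16 and -1.33 ± 0.27 and also fell at each. *Sass6*, the centriole cartwheel protein that every dividing cell uses, had 0.81 ± 0.32, 0.42 ± 0.32 and 1.58 ± 0.29 and rose at Year 2 (FDR = 0.00168).

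**Figure D5:**
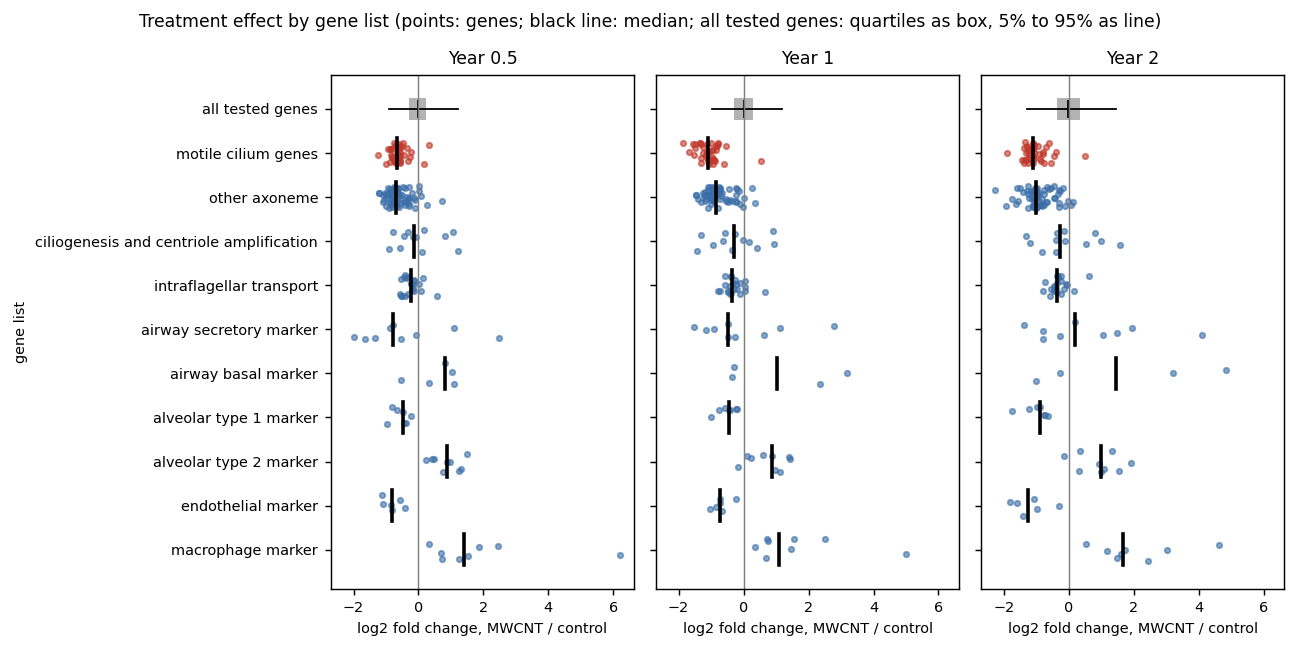
Log2 fold change of MWCNT-treated over control rats (horizontal axis) for the genes of each list (points, with a black line at the list's median) at the 3 time points, below a box of the quartiles of all tested genes. The motile cilium genes (red) and the other axoneme genes lie mostly left of 0, the transport genes lie nearer to it, and lists of other cell types move to both sides.

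Markers of the other cells of the lung moved at the same time, and the part of a changed mix of cells in the falls was not tested. Airway secretory markers were mixed, with 3, 3 and 2 of 9 lower and 2 higher at each time point. Over all tested genes the shares were 18.6%, 19.6% and 24% lower and 20.2%, 21.6% and 25.2% higher. The summed TPM of the secretory markers, which is nearly all *Scgb1a1*, ran over 18307 to 33085 in control and 10778 to 15785 in treated rats. *Cyp2f4*, a club cell cytochrome P450, fell at Year 2 with a log2 fold change of -1.38, *Spdef*, a goblet cell factor, rose by 1.07, and *Bpifa1*, a secreted airway protein, rose by 4.11 with values that varied widely among control rats. Airway basal markers were scarce, at 9.17 to 25.4 summed TPM in control and 5.24 to 46.2 in treated rats. Of these basal markers, *Krt14* and *Krt17* rose at Years 1 and 2, by 4.84 and 3.21 at Year 2, and *Ngfr* fell by 1.01. Only 4 of the 7 basal markers had enough reads to be tested at Years 1 and 2, and 2 of the 4 had estimates below 0 each time. Endothelial markers fell in 6 of 6 tested genes at each time point, *Tek*, *Kdr* and *Cldn5* among them by 1.81, 1.58 and 1.41 at Year 2, with a summed TPM of 2226 to 2843 in control and 750.0 to 1585 in treated rats.

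Alveolar type 1 markers fell in 7, 6 and 7 of 7 genes at Years 0.5, 1 and 2, from 5593 to 6566 summed TPM in control to 2815 to 4304 in treated rats, and *Rtkn2*, *Clic5* and *Emp2* fell by 1.73, 1.23 and 0.76 at Year 2. For this list and the 2 that follow, the shares of all tested genes were 18.6%, 19.6% and 24% lower and 20.2%, 21.6% and 25.2% higher. Alveolar type 2 markers rose in 9, 7 and 8 of 9, with 28209 to 37402 summed TPM in control and 52125 to 61992 in treated rats, and *Sftpa1*, *Sftpd* and *Lamp3* rose by 1.55, 1.90 and 1.33 at Year 2. Macrophage markers rose in 8 of 8 at each time point, with 518 to 730.0 summed TPM in control and 1189 to 1688 in treated rats, and *Cd68*, *Msr1* and *Lpl* rose by 3.03, 2.45 and 1.60 at Year 2.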

How the data were processed

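RNA-seq was performed on accessory lobe pieces of 18 rats, each library being a separate rat, and the rats were grouped by the labels. The authors mapped the reads with CLC Genomics Workbench to the rat genome (Rnor_6.0, rn6 per the submitters' notes) and deposited, per time point, total counts of reads per gene and TPM values, along with other normalized columns and their own fold changes and p-values, which were not used. The handling of strand and of reads that map to several genes is not given in the sources used here. Raw counts were tested with edgeR 4.0.16 in R 4.3.3 (filterByExpr with a minimum count of 10 and a total of 15, TMM scaling, quasi-likelihood F-test), with the Benjamini-Hochberg FDR over all genes tested. Each time point was fitted with its 6 rats, and contrasts over time used one 6-group model of all 18 rats. TPM values as deposited are given as levels. The pipeline was tested on simulated data. Alternatives used DESeq2 1.42.0, limma 3.58.1 on log2(TPM + 1) and log2(TPM + 0.1), other scaling and filters, stricter thresholds, a replicate block and leaving out each rat.

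Values of every rat were given for members that were DEGs at any time point, for regulators, and for the highest and lowest of a role group at Year 2, and 3 genes with the lowest FDR at Year 2 were named from each companion list. *Scgb1a1* and *Adprhl2*, and *Sftpc*, were added after their values were seen. The members and lists were chosen with earlier results of these data known. Promoter windows came from RefSeq tables (GRCr8) and were searched with Python 3.11.15. Same-numbered rats did not deviate together.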

Additional observations from a re-analysis of the deposited data

How the results depend on the processing

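The count of members past the FDR at Year 0.5 was 20 in the reported fit. It was 31 with the replicate number as a block, 4 at an FDR below 0.01 and 1 with the added limit on the fold, and it ran from 5 to 35 when single rats were left out. Under the other scalings, filters, models and tools it ran from 21 to 29. At Year 1 it was 38, or 23 with the limit on the fold, and 37 to 38 with single rats left out. At Year 2 it was 37, and 35 to 36 with single rats left out. For the change of the treatment effect to Year 2, no member passed in edgeR, DESeq2 called 1 from Year 0.5 and 1 from Year 1, and the first of these contrasts gave 0 to 1 with single rats left out. For the treated rats over time, fitting only the rats compared gave 2 members (*Myb* and *Tppp3*) from Year 0.5 to Year 2 and 0 from Year 1 to Year 2, and the latter count was 0 to 1 with single rats left out. The cause of these shifts was not tested. Same-numbered rats had a mean correlation of deviations of 0.00685 over 9 pairs of groups, against -0.00319 for rats with different numbers, so the numbers did not pair the rats, and the block changed no other count of members by over 1.5 times. No called direction reversed under any setting run. With 3 rats a group, the precision of the least abundant members, such as *Ccno* and *Mcidas*, was limited by their few reads.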
